A study of Mus musculus with 11 samples.

Results

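The 10 genes described here encode secreted acute-phase proteins: Serpina3n, Serpina3c, Serpina1a, Lrg1, Saa1, Saa3, Lcn2, Hp, Orm1 and Itih4, out of 52282 genes with a value in mouse inguinal white adipose tissue. They were listed by name, as acute-phase genes that stood lower with rosiglitazone, so the difference between the 2 WT groups, where those lower levels were seen, is given below as a description, with no test. Of the 10, 9 passed the filter on low counts, and Saa1 did not. The study examined how PPARG, the nuclear receptor that rosiglitazone activates, and mTORC1, a nutrient-sensing kinase complex built around the Raptor subunit, act together on the transcriptome of this subcutaneous fat depot.

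All mice were C57BL6/J, carried floxed Raptor alleles, ate a high-fat diet for 8 weeks from an age of 8 weeks and were 16 weeks old at sampling. In KO mice an adiponectin Cre, which acts in adipocytes and leaves Raptor in the other cells of the depot, deleted the gene. Floxed littermates without that deletion were WT. The 4 groups were KO with rosiglitazone at 30 mg/kg/day in the diet (3 libraries), KO on the diet alone (2 libraries), WT with rosiglitazone (3 libraries) and WT on the diet alone (3 libraries). In each of the 6 WT libraries the title and the treatment field disagree on whether rosiglitazone was given, and in the KO libraries they do not. The field was followed, so every direction between the WT groups, and every comparison with either of them, depends on it. The labels do not say that each library is a separate animal, so p-values measure the spread between these libraries.

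The acute phase is the change in secreted proteins that follows infection, injury or inflammation. Interleukin-6 acting through STAT3, and interleukin-1 and TNF acting through NF-kappaB, together with C/EBP factors and glucocorticoids, are its textbook inducers. The liver makes most of the circulating proteins, but adipocytes also secrete several of them, among them haptoglobin, serum amyloid A3, lipocalin 2 and orosomucoid, and obesity raises some of these. The protein classes differ: Serpina genes encode protease inhibitors, Hp, Orm1 and Lcn2 encode binding proteins, Saa genes encode apolipoproteins, and Lrg1 and Itih4 encode a signalling glycoprotein and a matrix-associated heavy chain.

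Libraries held 13035346 to 17167452 estimated reads in KO with rosiglitazone, 18910679 and 20163464 in KO on diet, 18437526 to 40925952 in WT with rosiglitazone, and 16088059 to 27160069 in WT on diet. Raptor itself (Rptor) stood at 82.4 to 91.7 CPM (read counts scaled to a common library size by TMM) in KO with rosiglitazone against 110.5 to 126.1 CPM in WT with rosiglitazone. On diet alone it stood at 56.5 to 69.6 CPM in KO and 73.9 to 92.01 CPM in WT. Genotypes did not overlap within either treatment, and reads from undeleted exons and other cells are included. Replicate 1 of WT on diet and replicate 1 of KO on diet stood apart from the other libraries of their groups. Their 8 B-cell markers summed to 27.2 and 21.2 CPM, against 654 to 823 CPM in the other 3 diet libraries, and their 13 mature adipocyte markers summed to 26530 and 4625 CPM, against 8731 to 10260 CPM in the other WT and 1739 CPM in the other KO library on diet. Of the 10 members, 8 had their highest level of all 11 libraries in replicate 1 of WT on diet. Replicate 2 of WT with rosiglitazone was also low in B-cell markers (19.4 CPM), and skeletal muscle markers summed to 3537 to 15800 CPM in 4 libraries and 13.1 to 303 CPM in the other 7. For the members, most fold changes that rest on the libraries that stood apart are given with and without them. For genes outside the members, estimates come from all 11 libraries, and only the fate of some calls without a library is given.

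Haptoglobin (Hp), the carrier of free haemoglobin, was the most abundant member in every group. Levels are compared between genes as TPM rescaled over protein-coding genes alone, here coding TPM. In KO with rosiglitazone Hp averaged 231.0 ± 53.4 coding TPM (SD, n = 3), ahead of Lrg1 at 73.9 ± 5.19 and Serpina3n at 52.4 ± 12.6. In KO on diet Hp averaged 749 ± 666 coding TPM (SD, n = 2), ahead of Serpina3n at 105 ± 79.6, Saa3 at 93.2 ± 120 and Lrg1 at 88.4 ± 18.9. The order of those 3 differed between the 2 libraries. In WT with rosiglitazone the order was Hp at 227 ± 50.3 coding TPM, Lrg1 at 81.5 ± 1.21, Serpina3c at 60.8 ± 15.4 and Orm1 at 31.1 ± 9.88 (SD, n = 3). In WT on diet it was Hp at 2714 ± 2141, Lrg1 at 508 ± 257, Serpina3n at 315 ± 212 and Serpina3c at 174 ± 106 (SD, n = 3). Neighbours overlapped within 1 SD between libraries, but the order was the same within each of the 3 libraries. Hp and Lrg1 stood at 5173 and 804 coding TPM in replicate 1, 1707 and 375 in replicate 2 and 1262 and 345 in replicate 3. In that group Hp stood above 99.9% of protein-coding genes and Lrg1 above 99.1%. Lcn2, at 0.992 to 6.63 coding TPM, and Itih4, at 0.359 to 0.988 coding TPM, were low in all 4 group means.

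The serpins of the list sit in a gene cluster on chromosome 12. Serpina1a encodes a mouse alpha-1-antitrypsin, an inhibitor of neutrophil elastase, and Serpina3n and Serpina3c are mouse relatives of human alpha-1-antichymotrypsin. In GRCm38 (GENCODE M21), Serpina1a lies at chr12:103853589-103863562 on the minus strand, Serpina3c at chr12:104146382-104153870 on the minus strand and Serpina3n at chr12:104406729-104414329 on the plus strand, with gaps of 282.8 and 252.9 kb between neighbours. The 250 bases before the RefSeq start of Serpina3n and of Serpina3c are shown because the pair had near-identical sequence here and unlike patterns over the groups. They come from RefSeq on GRCm38.p6, Serpina3n from chr12:104406458-104406707 (plus strand) and Serpina3c from chr12:104153873-104154122 (minus strand), 5′ to 3′ along each gene. Capitals mark the bases that differ between them or face a gap when the windows are aligned.
Serpina3n: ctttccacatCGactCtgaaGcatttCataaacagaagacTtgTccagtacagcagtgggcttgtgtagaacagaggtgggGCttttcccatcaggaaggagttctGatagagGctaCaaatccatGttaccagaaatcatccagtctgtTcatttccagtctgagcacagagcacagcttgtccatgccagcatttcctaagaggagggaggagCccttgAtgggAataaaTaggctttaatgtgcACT
Serpina3c: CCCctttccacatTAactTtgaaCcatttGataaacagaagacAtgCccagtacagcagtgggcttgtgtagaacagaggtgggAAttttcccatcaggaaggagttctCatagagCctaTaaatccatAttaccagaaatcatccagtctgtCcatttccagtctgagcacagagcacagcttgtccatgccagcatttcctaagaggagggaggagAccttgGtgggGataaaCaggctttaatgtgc
Of 253 aligned columns, 229 held the same base (90.5%). Every other pair among the 8 members with a promoter in the RefSeq table shared 42.5% to 51.9% of columns.

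Serpina3n stood at 30.8, 25.1 and 38.4 CPM in KO with rosiglitazone and at 101 and 25.4 CPM in KO on diet. It stood at 9.20, 10.45 and 16.04 CPM in WT with rosiglitazone and at 444, 128 and 92.8 CPM in WT on diet. The WT groups did not overlap, the KO groups did, and the lowest libraries of all were those of WT with rosiglitazone. Serpina3c stood at 6.79, 5.27 and 11.01 CPM in KO with rosiglitazone and at 30.7 and 8.75 CPM in KO on diet. It stood at 43.9, 45.2 and 65.8 CPM in WT with rosiglitazone and at 252, 85.4 and 54.4 CPM in WT on diet. Here every KO library was below every WT library, and the treatments overlapped in both genotypes. Per length, in coding TPM, Serpina3n averaged 52.4 and Serpina3c 11.99 in KO with rosiglitazone, while in WT with rosiglitazone Serpina3n averaged 15.1 and Serpina3c 60.8, so the order of the pair with rosiglitazone was opposite in the 2 genotypes. On diet Serpina3n was above Serpina3c in both, at 105 against 30.6 in KO and 315 against 174 in WT.

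Serpina1a stood at 1.99, 0.828 and 2.05 CPM in KO with rosiglitazone and at 1.87 and 2.80 CPM in KO on diet. It stood at 0.604, 0.902 and 1.27 CPM in WT with rosiglitazone and at 19.7, 13.01 and 8.55 CPM in WT on diet. The 3 WT libraries on diet were above all 8 others. Of the 31-base words in Serpina1a transcripts, 65.2% also occur in other genes, most of them in Serpina1c, so reads are divided among Serpina1a to Serpina1e by the quantifier's model. The sum over those 5 genes does not depend on that division. It was 6.93 to 8.77 CPM in KO with rosiglitazone, 4.14 and 16.7 CPM in KO on diet, 1.37 to 3.995 CPM in WT with rosiglitazone and 24.4 to 40.7 CPM in WT on diet. The order of the groups was the same for the sum as for Serpina1a in WT, with no overlap between the WT groups.

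Hp (chr8:109575128-109579172, minus strand) stood at 64.5, 62.5 and 86.7 CPM in KO with rosiglitazone and at 381 and 73.9 CPM in KO on diet. It stood at 67.6, 100.3 and 109 CPM in WT with rosiglitazone and at 1961, 493 and 342 CPM in WT on diet. The WT libraries on diet were at or near the top, and KO on diet was split, with replicate 1 above and replicate 2 within the range of both rosiglitazone groups. Of the Hp reads, 65.13% went to the coding transcript and 34.5% to a shorter processed transcript. Orm1, an orosomucoid that binds lipophilic molecules in plasma (chr4:63344560-63348163, plus strand), stood at 1.99, 0.903 and 1.80 CPM in KO with rosiglitazone and at 4.43 and 1.28 CPM in KO on diet. It stood at 5.26, 8.77 and 10.53 CPM in WT with rosiglitazone and at 35.6, 12.3 and 6.67 CPM in WT on diet. As for Serpina3c, all KO libraries of Orm1 were below all WT libraries and the treatments overlapped in WT. Orm1 shares 27.5% of its 31-base words with Orm2, and Orm1 to Orm3 together summed to 4.22 to 6.30 CPM in KO with rosiglitazone, 4.78 and 7.63 CPM in KO on diet, 7.39 to 12.1 CPM in WT with rosiglitazone and 9.86 to 36.9 CPM in WT on diet. For the sum, KO on diet reached into the range of WT with rosiglitazone.

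Lrg1, a secreted leucine-rich glycoprotein that modulates TGF-beta signalling through endoglin (chr17:56119678-56122001, minus strand), was even among replicates in 2 of the groups. It stood at 28.2, 26.8 and 29.3 CPM in KO with rosiglitazone and at 40.03 and 24.6 CPM in KO on diet. It stood at 38.3, 43.0 and 40.5 CPM in WT with rosiglitazone and at 403, 138 and 119 CPM in WT on diet. The 8 libraries outside WT on diet lay within 24.6 to 43.0 CPM. Itih4, a heavy chain of the inter-alpha-trypsin inhibitor family (chr14:30886476-30902353, plus strand), was near the limit of detection, at 0.374 to 0.436 CPM in KO with rosiglitazone, 0.1598 and 0.492 CPM in KO on diet, 0.373 to 0.507 CPM in WT with rosiglitazone and 0.835 to 0.998 CPM in WT on diet. It had 123 reads over all 11 libraries.

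Saa3 is the serum amyloid A gene that mouse adipocytes and macrophages express outside the liver (chr7:46711998-46715700, minus strand). It stood at 5.05, 4.82 and 4.36 CPM in KO with rosiglitazone and at 25.7 and 3.67 CPM in KO on diet. It stood at 2.81, 2.61 and 2.60 CPM in WT with rosiglitazone and at 26.3, 7.02 and 3.34 CPM in WT on diet. Both diet groups were spread widely, and both rosiglitazone groups were tight, with KO above WT. Saa1, the main hepatic serum amyloid A in plasma, lies 24.8 kb away and had 3, 2 and 1 reads in KO with rosiglitazone, 2 and 0 in KO on diet, 0, 0 and 1 in WT with rosiglitazone and 0 in each library of WT on diet. Those 0 reads allow up to 0.0479 CPM (3 reads over the group, counting error only), against 0.132 CPM over the 6 reads of KO with rosiglitazone. With 9 reads in all Saa1 entered no test. Lcn2, a lipocalin that binds the iron-carrying siderophores of bacteria (chr2:32384633-32388252, minus strand), stood at 0.187 to 2.12 CPM in KO with rosiglitazone, 0.359 and 2.91 CPM in KO on diet, 0.249 to 0.444 CPM in WT with rosiglitazone and 0.540 to 1.21 CPM in WT on diet. It had 190 reads in all, and its KO libraries spanned the range of all groups.

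**Figure D1:**
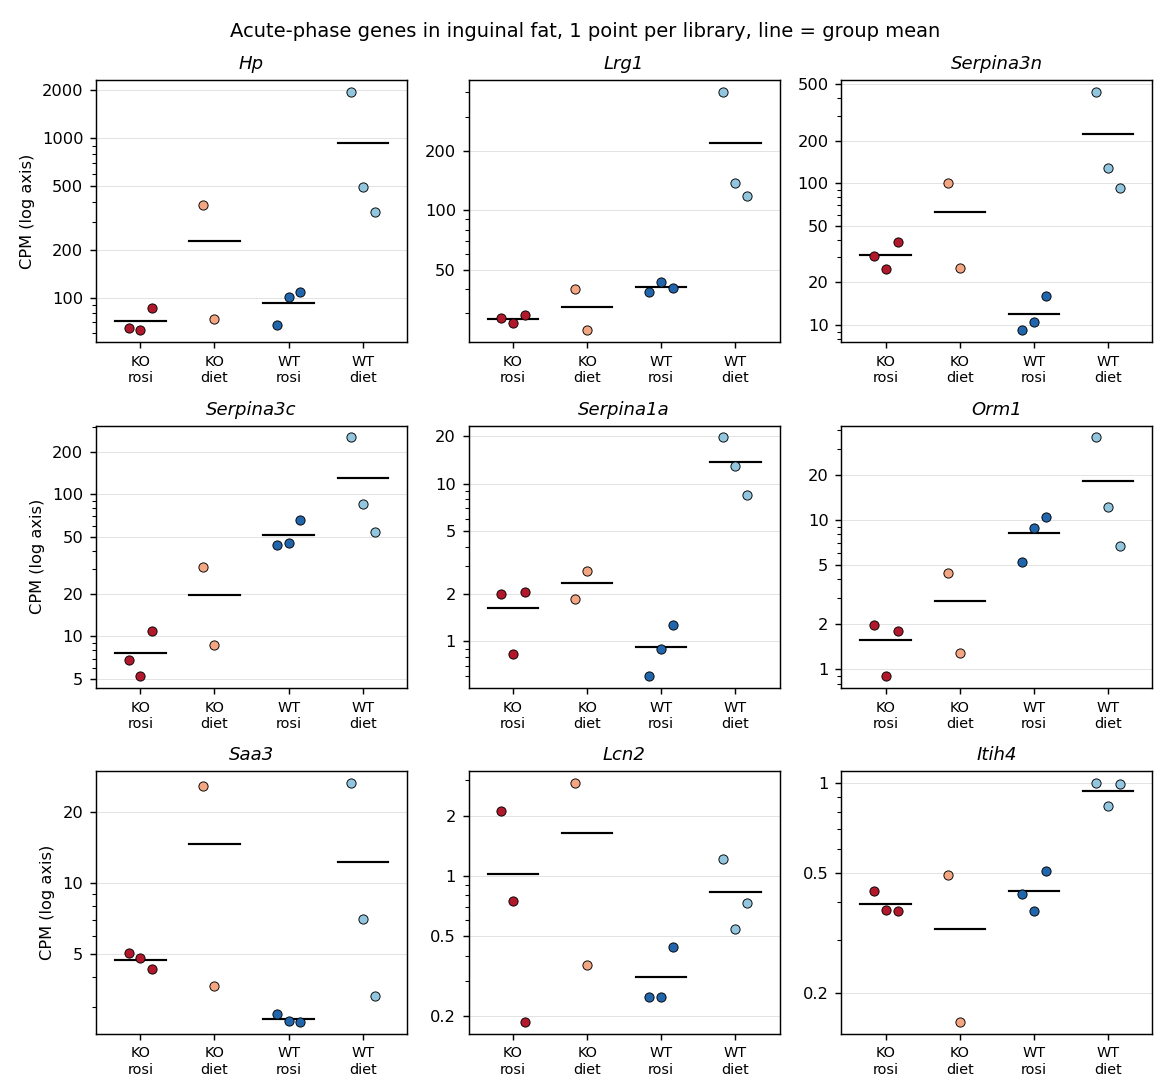
Level of 9 members in each library, in CPM on a log axis, with 1 point per library, grouped from left to right as KO with rosiglitazone, KO on diet, WT with rosiglitazone and WT on diet, and a line at each group mean. Hp reaches 1961 CPM in replicate 1 of WT on diet, while Lrg1 stays within 24.6 to 43.0 CPM in the 8 libraries outside that group.

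The Saa3 window holds letters that match the C/EBP motif, on the reverse strand, and is shown as the example of the motif search. It comes from RefSeq on GRCm38.p6, chr7:46715677-46715926 (minus strand), 250 bases before the start, 5′ to 3′, with the match in capitals.
Saa3: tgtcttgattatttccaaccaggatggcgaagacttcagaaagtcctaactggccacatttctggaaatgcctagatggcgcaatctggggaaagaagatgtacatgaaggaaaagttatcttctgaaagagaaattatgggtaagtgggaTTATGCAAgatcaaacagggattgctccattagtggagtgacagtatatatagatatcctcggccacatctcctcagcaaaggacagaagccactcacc
The match lies 99 to 92 bases before the RefSeq start. In GENCODE M21 the Saa3 gene reaches to chr7:46715700, so this window overlaps it. The Lcn2 window (chr2:32387740-32387989) lies wholly inside the GENCODE gene, so positions hold for the RefSeq starts alone. C/EBP was searched as TTGCNNAA, STAT as TTCNNNGAA and kappa-B as GGGRNNYYCC, each on both strands of the same 250 bases. R stands for A or G, Y for C or T and N for any base. C/EBP letters were found in 3 of the 8 members with a window (Saa1, Saa3 and Lcn2), against 9.57% of 32817 promoters. STAT letters were found in 1 of 8 (Itih4), against 7.01% of promoters, and kappa-B letters in 0 of 8, against 7.25%. These are matches of letters and were not tied to any measured binding.

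Between the WT groups all 9 measured members had lower estimates with rosiglitazone. The median log2 fold change was -2.19, beside -0.05 over all 26960 genes. Serpina3n was lowest, at -4.22 ± 0.71 (SE), an 18.7-fold lower level, followed by Serpina1a at -3.92 ± 0.45, Hp at -3.34 ± 0.75 and Lrg1 at -2.44 ± 0.42. Saa3 was at -2.19 ± 0.80, Lcn2 at -1.43 ± 0.90, Serpina3c at -1.34 ± 0.60, Orm1 at -1.16 ± 0.62 and Itih4 at -1.11 ± 0.45. For 7 of the 9 the WT libraries with rosiglitazone were all below those on diet, a pattern that 10.4% of all genes showed, and Serpina3c and Orm1 overlapped. Since the members were listed for being lower with the drug, nothing is read from that share. Without replicate 1 of WT on diet the median was -1.07, Serpina3n was at -3.22, Hp at -2.18, Lrg1 at -1.66, Saa3 at -0.95, Serpina3c at -0.44 and Orm1 at -0.22. In the same fit Serpina1a was at -3.565, Itih4 at -1.07 and Lcn2 at -1.05. In bulk tissue, fewer cells of a type and less RNA per cell cannot be told apart. Mature adipocyte markers summed to 24170 to 28520 CPM in WT with rosiglitazone and 8731 to 26530 CPM on diet. By edgeR 2 of 12 macrophage markers fell with rosiglitazone, beside 0.593% of all genes, and 0 rose, beside 1.55%. Macrophage markers summed to 676 to 836 CPM with the drug and 911 to 1281 CPM on diet. The part of these cell types in the members' levels was not tested.

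Rosiglitazone in KO contrasts libraries that the WT comparison does not use, and is the comparison in which the members were tested. The spread behind its edgeR p-values was nevertheless estimated from all 11 libraries, those of WT included. The choice was also made with earlier results of all libraries known. None of the 9 members passed edgeR's quasi-likelihood test there, where 0.0148% of all genes were called in either direction. At an unadjusted p under 0.05 the count was 0 of 9 by edgeR, beside 8.36% of all genes. By DESeq2 it was 3 of 9, beside 9.43% of all genes, and DESeq2 also called 0 after adjustment. The edgeR count moved with the WT libraries. Without replicate 1 of WT on diet, unadjusted p-values by edgeR were 0.014 for Hp, 0.027 for Serpina3c and 0.031 for Saa3. With the 2 KO groups fitted alone, that of Hp was 0.036. The share of all genes under 0.05 in those fits is not given here. Estimates were below 0 for 8 of 9 members, with a median of -0.84 beside -0.01 over all genes. The 10 adipocyte progenitor markers had a median of -1.16 in the same comparison, with 9 of 10 estimates below 0, 7 lower without overlap and 0 called by edgeR or DESeq2. They summed to 2648 to 5079 CPM in KO with rosiglitazone and 1909 and 4980 CPM in KO on diet. Those sums lean on Col1a1, the only one of the 10 with a higher mean with rosiglitazone (2836 against 1296 CPM). They therefore do not show the lower estimates of the other 9. Mature adipocyte markers summed to 3304 to 3971 CPM with rosiglitazone and 1739 and 4625 CPM on diet, and macrophage markers to 2499 to 3093 CPM with rosiglitazone and 1187 and 3547 CPM on diet. The 12 macrophage markers had a median of 0.23, with 3 of 12 estimates below 0. Without overlap 4 were higher, beside 10.5% of all genes, and 0 lower, beside 10.7%. By edgeR 0 were called, and DESeq2 called 2, both higher. The part of these cell types was not tested. The 3 lowest were Hp at -1.68 ± 0.76 (adjusted p = 0.600), Saa3 at -1.63 ± 0.84 (adjusted p = 0.674) and Serpina3c at -1.35 ± 0.67 (adjusted p = 0.654), all by edgeR. Serpina3n was at -1.01 ± 0.69, Orm1 at -0.84 ± 0.74, Lcn2 at -0.66 ± 0.92, Serpina1a at -0.51 ± 0.47, Lrg1 at -0.20 ± 0.45 and Itih4 at 0.30 ± 0.54, with adjusted p-values of 0.766 to 0.971. The KO groups overlapped for all 9, while 10.7% of all genes were lower and 10.5% higher without overlap. Most of these estimates rested on replicate 1 of KO on diet: without it the median was 0.31 and the estimates of Serpina3n (0.31), Saa3 (0.37), Orm1 (0.31), Lrg1 (0.19) and Lcn2 (1.495) were above 0, as Itih4 was (1.28). Hp was then at -0.05 and Serpina3c at -0.18, while Serpina1a went the other way, to -0.77, and was the lowest of the 9. Without the other library of that group the median was -1.501, Hp was at -2.42 with an adjusted p of 0.194 by edgeR, and no member was called. A p that misses the threshold does not show that the levels were alike.

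The difference between the genotypes in the response to rosiglitazone is given as a description, because it rests on the same WT libraries. On the log2 scale it was 3.40 ± 0.65 for Serpina1a, 3.22 ± 0.98 for Serpina3n, 2.24 ± 0.62 for Lrg1, 1.66 ± 1.05 for Hp and 1.41 ± 0.71 for Itih4, all in the direction of a smaller reduction in KO. It was -0.01 ± 0.87 for Serpina3c, 0.31 ± 0.98 for Orm1, 0.57 ± 1.155 for Saa3 and 0.77 ± 1.29 for Lcn2, each within its SE. Without replicate 1 of WT on diet the median of the 9 was 0.50, and without replicate 1 of KO on diet it was 2.63, beside 1.41 with all libraries. Serpina1a was the steadiest, at 3.05 and 3.15 without those libraries in turn, and Serpina3n was at 2.21 and 4.53. Lrg1 was at 1.46 and 2.63, Hp at 0.5009 and 3.28, and Itih4 at 1.37 and 2.39. Serpina3c was at -0.92 and 1.16, Orm1 at -0.63 and 1.46, Saa3 at -0.67 and 2.56 and Lcn2 at 0.39 and 2.93, and Lcn2 was at -0.37 without replicate 1 of KO with rosiglitazone.

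**Figure D2:**
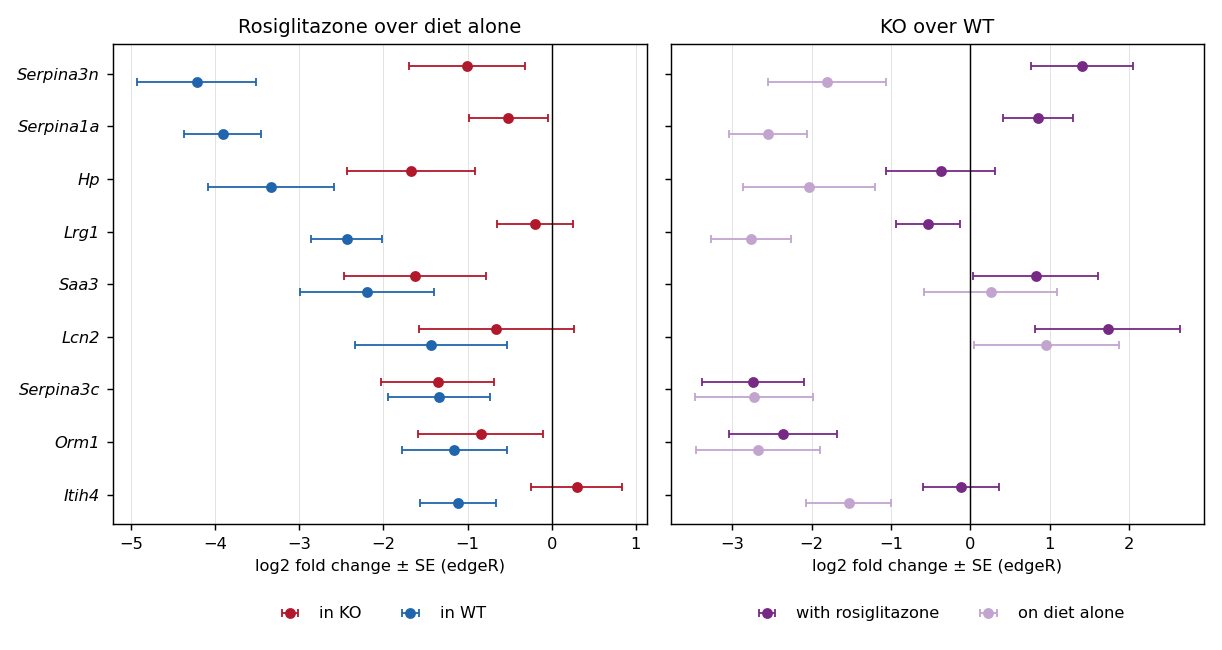
Log2 fold change with its SE (bars) for 9 members, for rosiglitazone over diet alone (left, KO in red and WT in blue) and for KO over WT (right, with rosiglitazone in dark purple and on diet alone in light purple), from edgeR's fit of all 11 libraries. Serpina3n, Serpina1a and Lrg1 have WT responses from -4.22 to -2.44 and KO responses from -1.01 to -0.20, and Serpina3c has -1.34 in WT and -1.35 in KO.

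KO and WT were set side by side on each treatment, again without a test for the members. On diet alone Lrg1 was at -2.77 ± 0.51 (log2, KO over WT), Serpina3c at -2.73 ± 0.75, Orm1 at -2.68 ± 0.78, Serpina1a at -2.55 ± 0.49, Hp at -2.03 ± 0.83, Serpina3n at -1.81 ± 0.74 and Itih4 at -1.53 ± 0.53. Saa3 at 0.26 ± 0.84 and Lcn2 at 0.96 ± 0.91 had estimates above 0. All KO libraries were below all WT libraries for 5 of 9 members, beside 10.3% of all genes, and above them for 0 of 9, beside 10.5% of all genes. These diet estimates depend on the libraries that stood apart. Without replicate 1 of KO on diet Hp was at -3.66, Serpina3n at -3.13, Itih4 at -2.52, Saa3 at -1.74 and Lcn2 at -1.201. Without replicate 1 of WT on diet Hp was at -0.88, Serpina3n at -0.80, Serpina3c at -1.83, Orm1 at -1.74, Saa3 at 1.496 and Lcn2 at 1.34. Lrg1 stayed between -3.17 and -1.99 and Serpina1a between -2.88 and -2.20 over all fits without a library. With rosiglitazone the estimates were Serpina3c -2.74 ± 0.64, Orm1 -2.37 ± 0.68, Lrg1 -0.53 ± 0.41, Hp -0.38 ± 0.69, Itih4 -0.12 ± 0.48, Saa3 0.82 ± 0.79, Serpina1a 0.85 ± 0.44, Serpina3n 1.41 ± 0.64 and Lcn2 1.73 ± 0.91, which was 0.59 without replicate 1 of KO with rosiglitazone. The estimates of Serpina3c and Orm1 were thus alike on both treatments, those of Lrg1, Hp and Itih4 were closer to 0 with rosiglitazone, and those of Serpina3n and Serpina1a were of opposite sign on the 2 treatments. For Orm1 this does not extend to its paralogs. Orm2 and Orm3 were at 1.87 ± 0.89 and 1.08 ± 0.90 with rosiglitazone, higher in KO without overlap and not called. On diet they were at 0.16 ± 0.94 and 0.11 ± 0.95, with overlap. With rosiglitazone KO was without overlap below WT for 3 of 9 members (Serpina3c, Orm1 and Lrg1), beside 24.7% of all genes, and above WT for 2 of 9 (Serpina3n and Saa3), beside 23.5% of all genes, shares near the background. Cell type markers moved with genotype: all 13 mature adipocyte markers fell in KO with rosiglitazone by edgeR, beside 9.50% of all genes. Their sums were 3304 to 3971 CPM in KO and 24170 to 28520 CPM in WT. Of 12 macrophage markers 8 rose, beside 5.47% of all genes, with sums of 2499 to 3093 CPM in KO and 676 to 836 CPM in WT. On diet the adipocyte sums were 1739 to 4625 CPM in KO and 8731 to 26530 CPM in WT. The part of cell makeup in the members' genotype differences was not tested.

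Dividing each member by the summed adipocyte markers of the same library gives its level per 1000 CPM of those markers. On that scale replicate 1 no longer stood apart in WT on diet for Lrg1, which was at 8.53, 6.75 and 8.12 in KO with rosiglitazone, 8.66 and 14.1 in KO on diet, 1.58, 1.51 and 1.58 in WT with rosiglitazone and 15.2, 13.5 and 13.6 in WT on diet. Hp was at 19.5, 15.7 and 24.1 in KO with rosiglitazone, 82.4 and 42.5 in KO on diet, 2.80, 3.52 and 4.26 in WT with rosiglitazone and 73.9, 48.1 and 39.2 in WT on diet. Serpina3n was at 9.32, 6.32 and 10.7 in KO with rosiglitazone, 21.8 and 14.6 in KO on diet, 0.381, 0.366 and 0.626 in WT with rosiglitazone and 16.7, 12.5 and 10.6 in WT on diet. For these genes the diet groups of the genotypes overlapped, and WT with rosiglitazone stood below all other libraries. Serpina3c was at 2.06, 1.33 and 3.06 in KO with rosiglitazone, 6.64 and 5.03 in KO on diet, 1.82, 1.59 and 2.56 in WT with rosiglitazone and 9.50, 8.33 and 6.24 in WT on diet, so its genotypes overlapped on both treatments and its treatments did not overlap in either genotype. On this scale rosiglitazone libraries were all below diet libraries for 6 of 9 members in KO, beside 13.8% of all genes, and for 9 of 9 in WT, beside 26.2% of all genes. KO was above WT for 7 of 9 members with rosiglitazone, beside 92.3% of all genes, and for 2 of 9 on diet, beside 81.0% of all genes, since the divisor itself is lower in KO. The divisor holds genes that PPARG is known to activate, and at an unadjusted p under 0.05 the WT libraries with rosiglitazone had 5 of its 13 markers higher (9.93% of all genes) and 1 lower (7.50% of all genes), with 0 called after adjustment by edgeR and 2 higher and 1 lower by DESeq2. A ratio of this kind shows unequal change and not which of the terms differed.

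**Figure D3:**
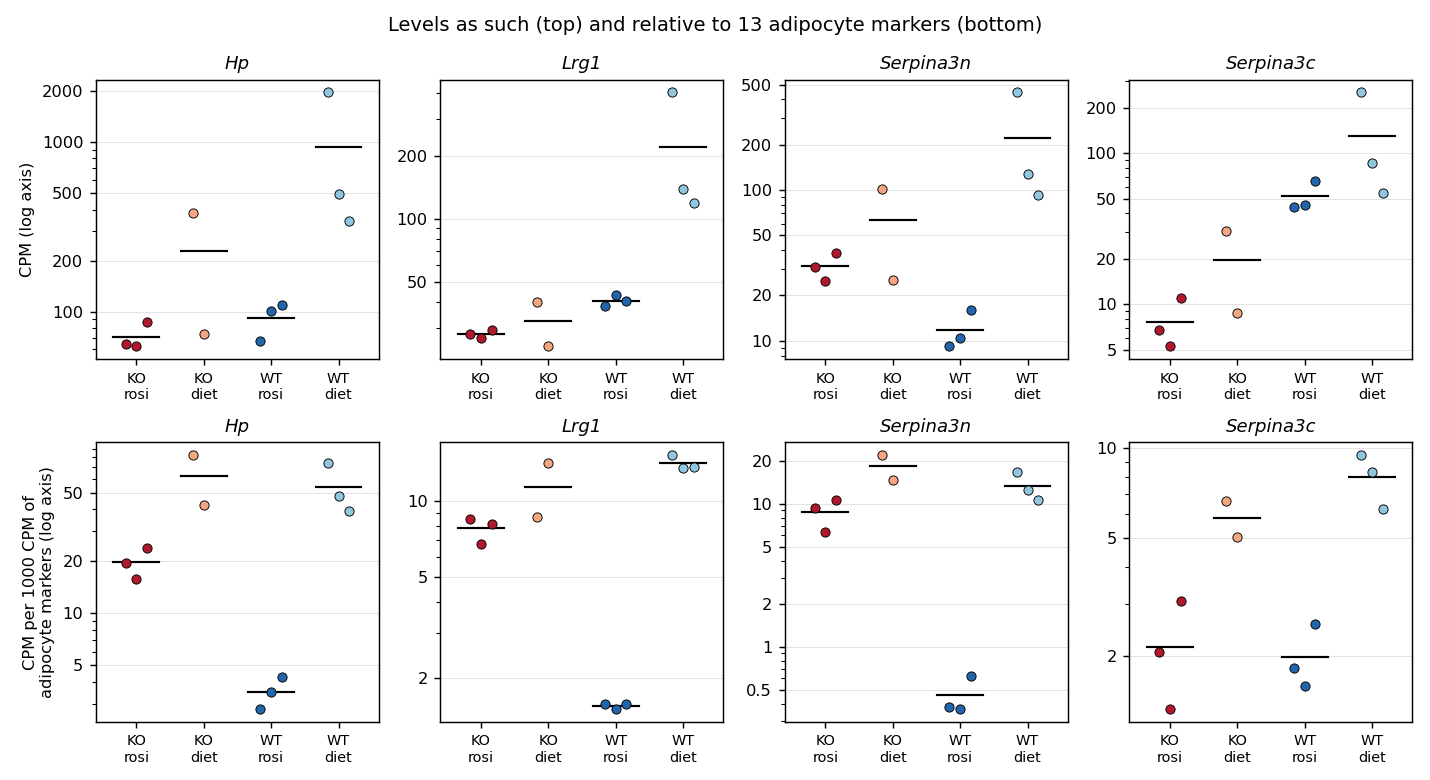
Level of Hp, Lrg1, Serpina3n and Serpina3c in each library as CPM (top row) and as CPM per 1000 CPM of 13 mature adipocyte markers (bottom row), both on log axes, with 1 point per library and a line at each group mean. In the bottom row Lrg1 lies at 13.5 to 15.2 in the 3 libraries of WT on diet and at 1.51 to 1.58 in those of WT with rosiglitazone.

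Some markers of hepatocytes and of neutrophils were at 0 in most libraries, and others were detected in every library. Among 10 hepatocyte markers, Tat had 0 reads in 9 of 11 libraries, Fgb and Ahsg in 8 of 11 each, and Ttr and Apoc3 in 6 of 11 each. Apoa2 had 0 reads in 4 libraries. Detected in every library were F2, at group means of 0.1815 to 0.690 CPM, and Cyp3a11, at 0.841 to 1.48 CPM. Alb averaged 0.50 CPM in KO with rosiglitazone, 0.311 in KO on diet, 4.45 in WT with rosiglitazone and 6.41 in WT on diet. The whole list summed to 37.0 to 50.1 CPM in KO with rosiglitazone, 51.3 and 163.5 in KO on diet, 130 to 320 in WT with rosiglitazone and 250 to 421 in WT on diet, most of it Cyp2e1, which fat also expresses, at means of 40.2, 105, 232 and 311 CPM in that order of groups. Among 10 neutrophil markers, Ly6g had 0 reads in 9 of 11 libraries and Retnlg in 8 of 11. Csf3r averaged 6.68, 16.2, 3.68 and 6.34 CPM and Cxcr2 8.24, 13.01, 6.99 and 10.4 CPM in that order of groups, with reads in every library. S100a8 and S100a9 had 0 reads in 1 library each and stood at 4.48 and 3.20 CPM in replicate 1 of KO on diet. The list summed to 15.4 to 17.5 CPM in KO with rosiglitazone, 18.0 and 49.6 in KO on diet, 11.2 to 13.5 in WT with rosiglitazone and 14.7 to 22.2 in WT on diet. The part of these cells in the members' levels was not tested.

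A wider list held 50 other acute-phase genes, of which 30 were tested. With rosiglitazone in KO none was called by edgeR, where 0.0111% of all genes were called higher and 0.00371% lower, and the median was -0.51. At an unadjusted p under 0.05, 2 were higher (4.09% of all genes) and 5 lower (4.27% of all genes), and DESeq2 called 1, lower. The smallest p-values were those of ceruloplasmin (Cp, a copper-carrying ferroxidase) at -1.18 ± 0.28 and of complement C3 at -1.29 ± 0.40, with adjusted p-values of 0.261 and 0.396 by edgeR. With rosiglitazone in WT, 1 of 30 fell and 0 rose, beside 0.593% of all genes called lower and 1.55% called higher, and the median was -0.99. The gene that fell was C3, the central protein of complement, at 142, 165 and 299 CPM with rosiglitazone and 1003, 624 and 603 CPM on diet (-1.88 ± 0.38, adjusted p = 0.0386 by edgeR). Agt (angiotensinogen) at -3.45 ± 0.76, Rbp4 (the retinol carrier) at -2.31 ± 0.56 and C4b at -1.47 ± 0.37 missed the threshold, with adjusted p-values of 0.0509, 0.0696 and 0.0713. DESeq2 called 8 of 30, all lower. The share of all genes that DESeq2 called after adjustment was not counted. Its adjusted counts, here and elsewhere, therefore have no background and cannot be set against edgeR's shares. The C3 call held in 3 of 11 fits that left out a library, namely replicate 1 or 2 of KO on diet or replicate 1 of WT on diet, and was lost without any of the other 8 and when the WT groups were fitted alone.

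KO against WT set the same list apart by direction. On diet alone 1 of 30 fell and 0 rose, beside 0.111% of all genes called lower and 0.0260% called higher, with a median of -0.17. At an unadjusted p under 0.05, 8 were lower (5.92% of all genes) and 3 higher (4.57% of all genes). The gene that fell was Vnn1, which encodes the pantetheinase vanin-1, at 1.23 and 0.479 CPM in KO and 23.1, 12.97 and 19.9 CPM in WT (-4.46 ± 0.55, adjusted p = 0.0225 by edgeR). This call was lost without replicate 1 of KO with rosiglitazone or replicate 1 or 3 of WT with rosiglitazone, and when the 2 groups were fitted alone. With rosiglitazone 3 rose and 6 fell, beside 5.47% of all genes called higher and 9.50% called lower, and the median was 0.11. Vnn1 fell (-6.26 ± 0.52, adjusted p = 0.000306), as did Cp (-1.69 ± 0.26, adjusted p = 0.0038) and the heavy chain Itih5 (-2.41 ± 0.50, adjusted p = 0.0124). Il1rn, the interleukin-1 receptor antagonist, rose by 4.10 ± 0.57 (adjusted p = 0.00278, edgeR), to a mean of 34.4 CPM in KO against 2.02 CPM in WT. C3 also rose (1.48 ± 0.37, adjusted p = 0.0264), at 493 to 640 CPM in KO and 142 to 299 CPM in WT, so it was higher in the same KO libraries in which Serpina3c and Orm1 were lower. The C3 call was lost in 4 of 11 fits, without replicate 1 or 3 of KO or replicate 1 or 2 of WT with rosiglitazone, and that of Itih5 in 2, without replicate 1 or 3 of KO with rosiglitazone. The adipocyte and macrophage marker sums given above differ between the same libraries.

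**Figure D4:**
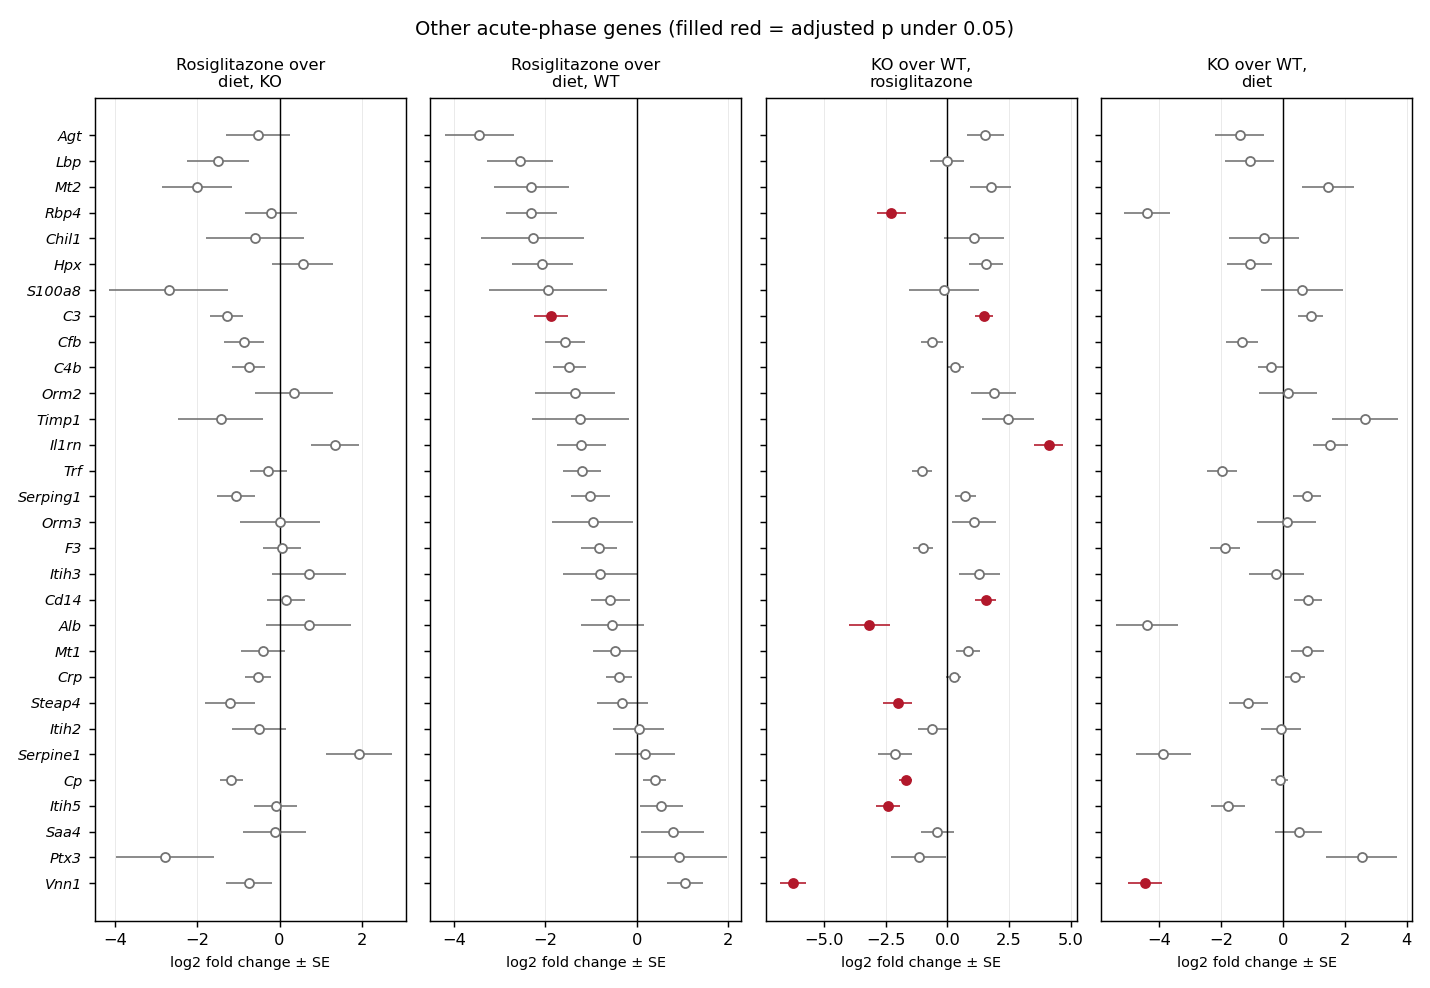
Log2 fold change with its SE (bars) for the 30 tested acute-phase genes outside the members, sorted by the rosiglitazone estimate in WT, with a panel per comparison and filled red points for an adjusted p under 0.05 by edgeR. C3 is the filled point in WT and Vnn1 the filled point for KO over WT on diet.

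The other 21 serpins of the chromosome 12 cluster gave 13 tested genes. With rosiglitazone in KO none was called by edgeR, beside 0.0148% of all genes called in either direction, and none by DESeq2. None passed an unadjusted p under 0.05 by edgeR, beside 8.36% of all genes. The median was 0.08, beside -0.01 over all genes. In WT 2 of 13 fell and 0 rose, beside 0.593% of all genes called lower and 1.55% called higher. The median was -1.31, beside -0.05 over all genes. Serpina1d fell by 4.74 ± 1.01 (adjusted p = 0.0449 by edgeR), at 0.107, 0 and 0.317 CPM with rosiglitazone and 3.77, 3.63 and 2.45 CPM on diet. Serpina1c, an alpha-1-antitrypsin copy, had 0 reads in WT with rosiglitazone and 139 in WT on diet, which is at least 56.3-fold lower with rosiglitazone against a floor of 3 reads over the group (adjusted p = 0.0287 by edgeR). The Serpina1d call held in 3 of 11 fits that left out a library and the Serpina1c call in 4, and since both share sequence with Serpina1a, the summed level of the 5 copies given above does not depend on how reads were split. The next 2, Serpina1b at -3.49 ± 0.84 and Serpina1e at -2.68 ± 0.65, missed the threshold (adjusted p = 0.0666 and 0.0669). Serpina3g, a more distant paralog expressed by leukocytes, averaged 33.0 CPM in KO with rosiglitazone, 18.5 in KO on diet, 11.5 in WT with rosiglitazone and 29.0 in WT on diet, and was lowest in replicate 2 of WT with rosiglitazone (1.93 CPM), replicate 1 of WT on diet (4.99 CPM) and replicate 1 of KO on diet (7.49 CPM), the 3 libraries lowest in B-cell markers. In KO against WT on diet edgeR called 0 of 13, beside 0.111% of all genes called lower and 0.0260% called higher, and DESeq2 called 0. At an unadjusted p under 0.05 by edgeR, 1 was lower, beside 5.92% of all genes, and 0 were higher, beside 4.57%. With rosiglitazone 1 of 13 fell in KO and 1 rose, beside 9.50% of all genes called lower and 5.47% called higher. Serpina3b fell (-2.84 ± 0.73, adjusted p = 0.0296 by edgeR), near the limit of detection, with 4 reads in KO and 51 in WT. Serpina1c rose, with 16 reads in KO and 0 in WT, at least 8.94-fold higher against the same floor (adjusted p = 0.0385 by edgeR), although a KO library was also at 0. Leaving out a library ended each of these calls in 6 of 11 fits, among them each of the 3 WT libraries with rosiglitazone.

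Of 53 genes for the cytokines, receptors, kinases and transcription factors that induce the acute phase, 52 were tested. Interleukin-6 itself was at the limit of detection, with 10 reads in KO with rosiglitazone, 13 in KO on diet, 8 in WT with rosiglitazone and 9 in WT on diet. Its receptor Il6ra averaged 93.2, 86.2, 107 and 92.3 CPM in the same order of groups, and Stat3 averaged 123, 130, 129 and 145 CPM. With rosiglitazone in KO none was called by edgeR, beside 0.0148% of all genes called in either direction. DESeq2 called 2, both lower. Before adjustment (edgeR, p under 0.05) 7 were lower, beside 4.27% of all genes, and 0 higher, beside 4.09%. The smallest p belonged to Hsd11b1, which regenerates active glucocorticoid, at 17.8, 19.3 and 21.3 CPM with rosiglitazone and 88.0 and 44.6 CPM on diet (-1.77 ± 0.31, adjusted p = 0.134 by edgeR). The next was the interleukin-1 decoy receptor Il1r2 at -2.50 ± 0.73 (adjusted p = 0.370). In WT 2 of 52 fell and 0 rose, beside 0.593% of all genes called lower and 1.55% called higher, with a median of -0.28: the TNF receptor Tnfrsf1b (-0.97 ± 0.21, adjusted p = 0.0460) and the interleukin-1 co-receptor Il1rap (-1.34 ± 0.29, adjusted p = 0.0488), both by edgeR. Both calls held in the same 3 of 11 fits as that of C3.

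In KO against WT on diet none of the 52 was called by edgeR, beside 0.111% of all genes called lower and 0.0260% called higher. DESeq2 called 2 higher and 1 lower. Before adjustment (edgeR, p under 0.05) 6 were higher, beside 4.57% of all genes, and 1 was lower, beside 5.92%. With rosiglitazone 6 of 52 rose and 1 fell, beside 5.47% of all genes called higher and 9.50% called lower, with a median of 0.38. Tnfrsf1b rose by 1.63 ± 0.21 (adjusted p = 0.00175), the kinase gene Pim1 by 1.18 ± 0.21 (adjusted p = 0.00668) and Tlr2 by 1.28 ± 0.30 (adjusted p = 0.0197), all by edgeR. The Tlr2 call was lost in 4 of 11 fits, without replicate 1 or 3 of KO or replicate 1 or 2 of WT with rosiglitazone. Cebpa, the C/EBP factor of mature adipocytes, fell (-2.06 ± 0.36, adjusted p = 0.00654), at means of 158 CPM in KO and 658 CPM in WT. Macrophages also express Tnfrsf1b and Tlr2, and their markers were higher in the same KO libraries. Their part in these differences was not tested.

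**Figure D5:**
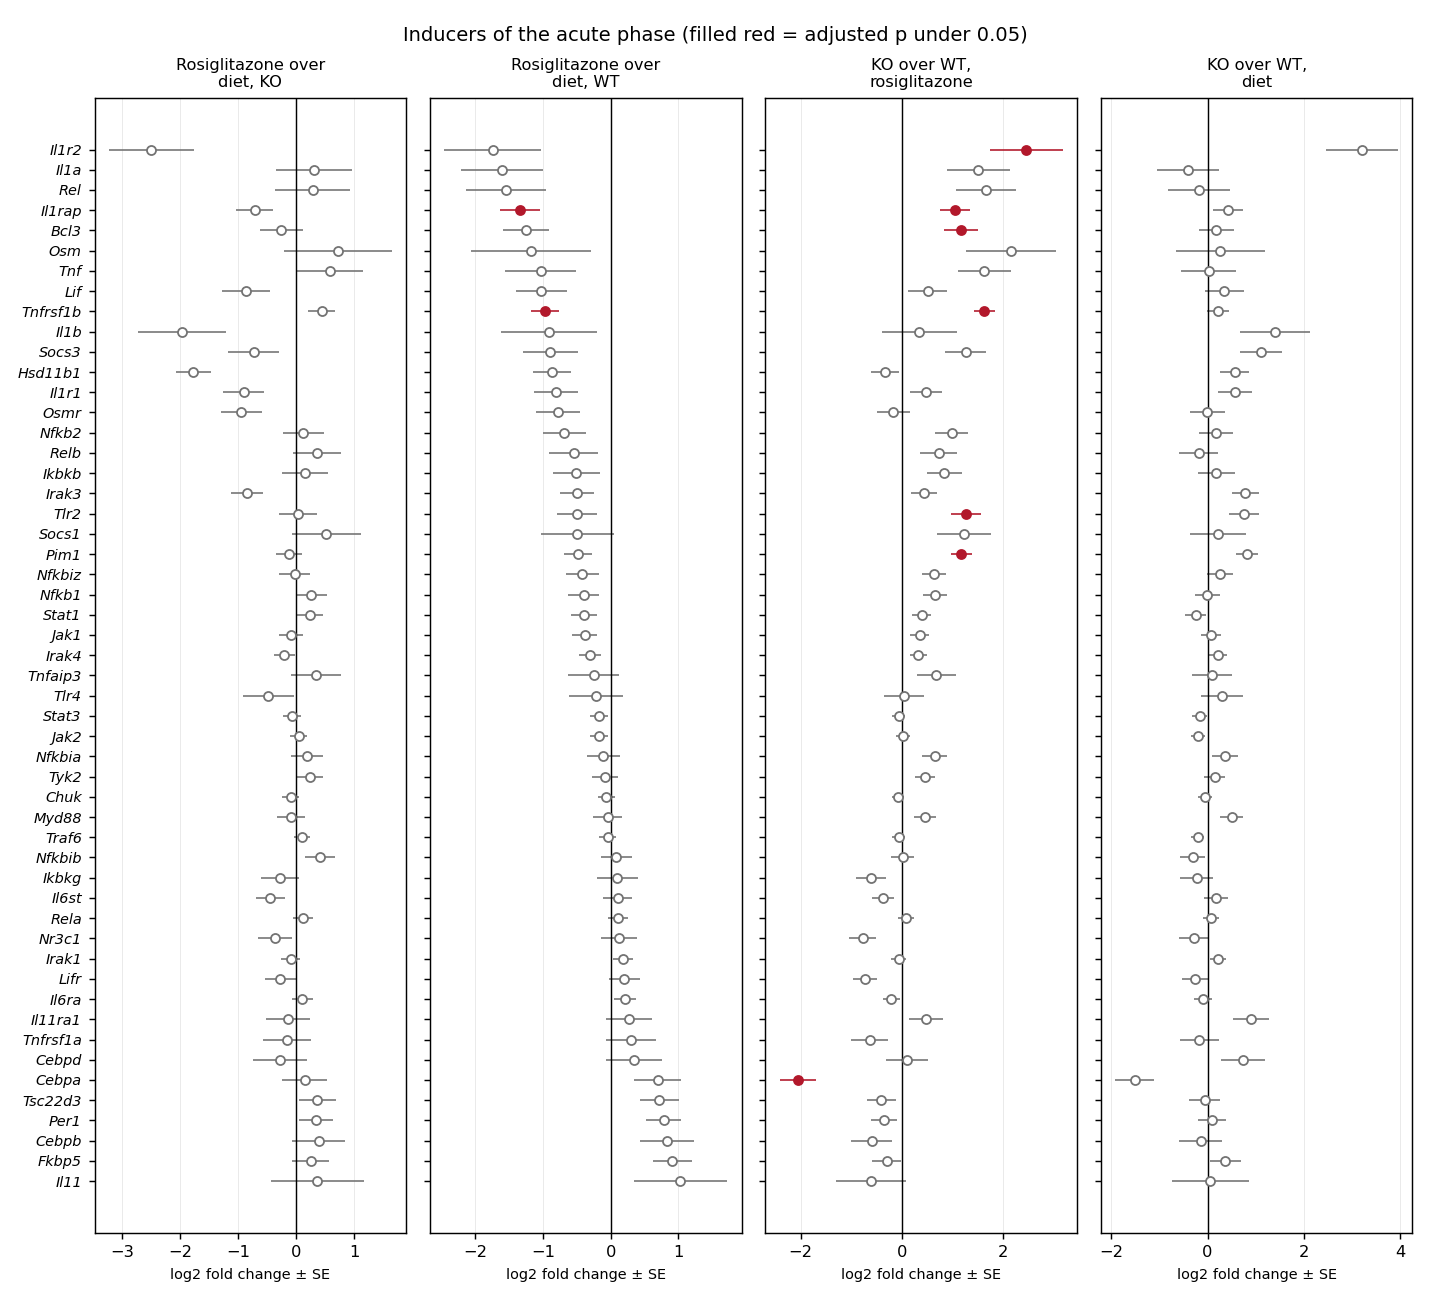
Log2 fold change with its SE (bars) for the 52 tested genes that induce or transmit the acute-phase response, sorted by the rosiglitazone estimate in WT, with a panel per comparison and filled red points for an adjusted p under 0.05 by edgeR. The filled points are 2 below 0 for rosiglitazone in WT, and 6 above and 1 below 0 for KO over WT with rosiglitazone.

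Of 16 receptors and partners of the acute-phase proteins, 14 were tested. With rosiglitazone in KO none was called by edgeR, beside 0.0148% of all genes called in either direction. DESeq2 called 1, lower. Before adjustment (edgeR, p under 0.05) 4 were lower, beside 4.27% of all genes, and 0 higher, beside 4.09%. The smallest p was that of Mmp9, the protease that lipocalin 2 binds and stabilises in humans, at 1.62, 2.03 and 2.80 CPM with rosiglitazone and 25.6 and 6.67 CPM on diet (-2.90 ± 0.57, adjusted p = 0.167 by edgeR). In WT edgeR called 1 of 14 higher and 0 lower, beside 1.55% and 0.593% of all genes. The gene was Scarb1, the HDL receptor that also binds serum amyloid A, and DESeq2 called 1 higher and 1 lower (the proteinase 3 gene Prtn3). Scarb1 rose by 1.196 ± 0.24 (adjusted p = 0.0377 by edgeR), a call that held in the same 3 of 11 fits. In KO against WT on diet none was called by edgeR, beside 0.111% of all genes called lower and 0.0260% called higher. DESeq2 called 2, both higher. Before adjustment (edgeR, p under 0.05) 5 were higher, beside 4.57% of all genes, and 3 lower, beside 5.92%. With rosiglitazone 2 of 14 rose in KO and 0 fell, beside 5.47% of all genes called higher and 9.50% called lower. P2rx7 rose by 1.35 ± 0.21 (adjusted p = 0.00434) and the TGF-beta receptor Tgfbr1 by 0.57 ± 0.14 (adjusted p = 0.0269), both by edgeR. The P2rx7 call held in all 11 fits without a library, and the Tgfbr1 call was lost in 5, without replicate 1 or 3 of KO or any replicate of WT with rosiglitazone. Cd163, the macrophage receptor for haptoglobin bound to haemoglobin, averaged 46.8 CPM in KO with rosiglitazone, 97.2 in KO on diet, 71.0 in WT with rosiglitazone and 38.6 in WT on diet, so it was not highest where Hp was.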

How the data were processed

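Bulk RNA-seq libraries (TRIzol RNA, Nextera XT) of mouse inguinal white adipose tissue were quantified per transcript by the authors with Salmon on a GRCm38 (mm10) reference, per the submitters' processing notes, with no version given in the sources used here. The deposited estimated counts and TPM per transcript are as Salmon wrote them, per the file headers, with transcript length and effective length beside them. Transcripts were summed to genes through GENCODE M21, which matched 131892 of 132288 transcripts (99.7%). Summed counts were rounded, and edgeR 4.0.16 in R 4.3.3 (TMM, quasi-likelihood with robust dispersion, filterByExpr by group) was fitted on all 11 libraries, with Benjamini-Hochberg adjustment over 26960 genes and a threshold of 0.05. SE is the log2 fold change over the square root of F. DESeq2 1.42.0, RLE scaling, no filter on low counts, the 2 groups alone, a replicate block, treatments from the titles and each library left out were the alternatives. In the deposited TPM, protein-coding genes took 13.619% to 46.491% and a single short RNA 15.29% to 46.99%, so TPM was rescaled over 21797 nuclear protein-coding genes. Libraries of 13035346 to 40925952 estimated reads set the precision, intervals and floors cover counting error only, and reads carry no molecular identifiers. Groups follow the treatment and genotype fields. Replicates of a group differed beyond counting error in every pair (chi-square per degree of freedom 26.54 to 139.3), and no pair held identical values. The code was tested on simulated data. The members and gene lists were chosen with earlier results of these data known. From each list, the 4 genes with the smallest p per comparison were to be named, every called gene where a comparison called 6 or fewer, and genes above 100 TPM; of the 6 genes most like the members the 3 closest are given, and Serpina3g, Il6 and Cd163 were named for their levels after values were seen. Promoters are those of RefSeq (GRCm38.p6), matched by symbol for 8 of the 10 members, all except Hp and Orm1. Sequence just after the RefSeq start was looked for in the gene's GENCODE M21 transcripts. It was found for Serpina3c, Lrg1, Lcn2 and Itih4 and not for Serpina3n, Serpina1a, Saa1 and Saa3.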

Additional observations from a re-analysis of the deposited data

Results flagged for a closer look

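Among the genes of the lists, 5 had libraries that moved one way without overlap in one comparison and the opposite way in its counterpart. The difference between the comparisons was tested as the interaction in edgeR, and none passed after adjustment. These 5 came from lists with 30, 13, 52 and 14 tested genes. The share of all genes with such opposite moves was not counted, so nothing is read from their number. Lower without overlap were 10.4% of all genes with rosiglitazone in WT and 10.7% in KO. For KO over WT the shares were 10.3% on diet and 24.7% with rosiglitazone. Ceruloplasmin (Cp) was lower with rosiglitazone in KO, at 36.2 to 45.4 CPM against 58.5 to 122.0 CPM on diet, and higher in WT, at 116.9 to 138.4 CPM against 79.5 to 108.8 CPM (interaction -1.58 ± 0.38, adjusted p = 0.177). The TNF receptor gene Tnfrsf1b was higher with rosiglitazone in KO, at 76.1 to 93.9 CPM against 63.5 to 65.02 CPM on diet, and lower in WT, at 19.2 to 34.4 CPM against 52.2 to 58.6 CPM (1.41 ± 0.31, adjusted p = 0.141). Cd163, the haptoglobin-haemoglobin receptor, was lower in KO than in WT with rosiglitazone, at 35.8 to 57.5 CPM against 59.4 to 87.3 CPM, and higher in KO on diet, at 55.4 to 139.1 CPM against 32.2 to 49.7 CPM (-1.93 ± 0.50, adjusted p = 0.220). The alpha-1-antitrypsin copies Serpina1b and Serpina1d were higher in KO than in WT with rosiglitazone and lower in KO on diet. Serpina1b had 2.93 to 3.46 CPM in KO and 0.187 to 1.59 CPM in WT with rosiglitazone, and 0.443 and 5.35 CPM in KO against 8.24 to 11.8 CPM in WT on diet (3.61 ± 1.21, adjusted p = 0.3455). Serpina1d had 0.810 to 1.25 CPM in KO and 0 to 0.317 CPM in WT with rosiglitazone, and 0.197 and 2.40 CPM in KO against 2.45 to 3.77 CPM in WT on diet (4.30 ± 1.38, adjusted p = 0.3202).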

How the results depend on the processing

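Rosiglitazone gave 0 called members in KO under every alternative run and in each fit that left out a library of any group but KO on diet. Taking treatments from the titles changes WT labels alone, so that run could not change this count. Itih4 had no adjusted p by DESeq2 and none with the 2 groups alone, so those 2 runs do not cover it. The members' median in WT was -2.19 and -1.73 with a replicate block, and from -2.64 to -1.07 when a library was left out. Taking WT treatments from the titles turned it to 2.19, with Serpina3n at 4.22, Serpina1a 3.92, Hp 3.34, Lrg1 2.44, Saa3 2.19, Lcn2 1.43, Serpina3c 1.34, Orm1 1.16, Itih4 1.11, C3 1.88, Serpina1c 8.51, Serpina1d 4.74, Il1rap 1.34, Tnfrsf1b 0.97 and Scarb1 -1.196, and in KO against WT with rosiglitazone C3 at -0.40, Serpina1c -2.65, Il1rap -0.28 and Bcl3 -0.067, since the WT groups change places. For the acute-phase list, calls in WT numbered 1, against 8 by DESeq2, 0 with the 2 groups alone and 0 to 5 without a library. In KO they numbered 0, against 1 by DESeq2 and 0 to 1 without a library. In KO against WT on diet they numbered 1, against 7 by DESeq2, 0 with the 2 groups alone, 0 with the block, 8 by the titles and 0 to 2 without a library, and with rosiglitazone 9, against 18 with the 2 groups alone, 10 with the block and 3 to 11 without a library. For the inducers, calls in WT numbered 2, against 4 by DESeq2, 1 with RLE scaling, 1 with the 2 groups alone, 1 with the block and 0 to 5 without a library. In KO they numbered 0, against 2 by DESeq2 and 0 to 1 without a library. In KO against WT on diet they numbered 0, against 3 by DESeq2, 11 by the titles and 0 without a library, and with rosiglitazone 7, against 14 by DESeq2, 26 with the 2 groups alone, 0 by the titles, 6 with the block and 3 to 15 without a library. Over the fits without a library, rosiglitazone in KO gave -1.69 to 0.31 for Serpina3n, -0.51 to 0.19 for Lrg1, -2.44 to 0.37 for Saa3, -1.80 to 1.495 for Lcn2 and -1.49 to 0.31 for Orm1, above 0 only without replicate 1 of KO on diet, and -0.31 to 1.28 for Itih4, below 0 only without replicate 2 of that group. The cause of these shifts was not tested. Whether replicate numbers pair the libraries was not settled: over 15 same-numbered pairs the correlation of deviations ran from -0.492 to 0.673, and 6 were above 0.1. Between KO and WT on diet it was 0.673 for replicate 1 and 0.4795 for replicate 2. With 2 libraries in KO on diet the deviations mirror each other, so these values cannot show or exclude a pairing of the diet libraries. Depth limits Saa1, Itih4 and Lcn2, with 9, 123 and 190 reads in all.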

Other observations

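Each of the 9 measured members was standardised on the log2 scale over the 11 libraries, and the mean was taken, so each has equal weight. The genes above the minimum level most like that mean were Trabd2b, Folh1 and Ugt1a6b, with Pearson correlations of 0.971, 0.962 and 0.958. These are descriptions over libraries that share the groups. Trabd2b averaged 4.04 CPM in KO with rosiglitazone, 7.31 in KO on diet, 4.27 in WT with rosiglitazone and 25.1 in WT on diet. Folh1 averaged 0.492, 1.49, 0.492 and 11.3 CPM in the same groups, and Ugt1a6b 2.34, 6.95, 4.40 and 25.6 CPM.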
